A study of Mus musculus with 8 samples.

Results

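The E14.5 embryos of the Ohia mouse line were compared as 2 homozygous mutants with 3 heterozygous controls, which make up 5 of the 8 brain RNA-seq libraries of the study. They were chosen by their stage label, and their litter number was kept as a block. Mutants 195-3 and 303-2 carried 2 mutant alleles of both Sap130 and Pcdha9 (m/m). Controls 195-2, 195-6 and 303-3 carried 1 mutant allele of each gene, so no library is wild type. The other 3 libraries, mutant 260-1 and controls 260-2 and 260-3 of the same genotypes, are from E13.5 and are given beside the results. The line is a model of hypoplastic left heart syndrome (HLHS), in which the left heart is underdeveloped. Both loci differ together between the groups, so their effects cannot be told apart. The design text counts the mutants of both stages as HLHS mice.

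The protein of Sap130 belongs to the SIN3-HDAC complex, which removes acetyl groups from histones and represses transcription. Pcdha9 is one of the clustered protocadherins, cell surface proteins that neurons use to recognise themselves and their neighbours. At this stage of mouse development the brain is divided into regions that each express their own transcription factors. The dorsal telencephalon is building the cortex, and the ventral telencephalon, or ganglionic eminences, is producing inhibitory neurons under the control of Dlx, Lhx6 and Lhx8. Behind them lie the diencephalon, midbrain and hindbrain, marked by Irx, En and Hox genes among others.

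The labels name the tissue only as brain, and 29 pan-neuronal genes summed to 14860 and 13630 CPM in mutants 195-3 and 303-2, against 14220 to 15240 CPM in the 3 controls. CPM are counts scaled to a common library size after TMM adjustment. Total counts ran from 36438282 to 47838448 per library. A few libraries stood apart in the most posterior tissue. The 20 Hox genes, which mark hindbrain and spinal cord, summed to 458 and 334 CPM in the mutants and to 207 and 239 CPM in controls 195-2 and 303-3, but to 3.48 CPM in control 195-6, and at E13.5 to 1.18 CPM in mutant 260-1 against 284 and 297 CPM in its controls. In whole tissue, fewer cells of a type and less RNA per cell cannot be told apart.

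Sap130 (plus strand of chromosome 18, from 31634371 to 31723061 on GRCm38) stood at 34.6 and 32.6 CPM in the mutants, against 51.6, 49.0 and 52.1 CPM in the controls. Both mutants lay below every control. The log2 change was -0.59 (SE 0.094, adjusted p = 0.0389, edgeR quasi-likelihood test with Benjamini-Hochberg adjustment, as for all adjusted p below). The call was lost without control 195-2 (adjusted p = 0.203) and under an offset for transcript length and GC content, where the change was -0.41 (adjusted p = 0.052). Pcdha9 (same strand, from 36997880 to 37187657) stood at 18.2 and 12.01 CPM in the mutants, against 24.6, 20.6 and 21.2 CPM in the controls. The groups did not overlap, but the change of -0.52 (SE 0.162) did not pass (adjusted p = 0.121). Without mutant 195-3 it was -0.82 and passed (adjusted p = 0.00858). Alpha protocadherin transcripts share their last exons, so the split of reads among them is uncertain.

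Of 17415 genes tested at E14.5, 4542 had an unadjusted p under 0.05, the share to set beside list counts at that threshold. After adjustment, 237 (1.36%) rose and 341 (1.96%) fell in mutants, together 3.32%. Every one of these 578 genes had the sign of its call in both litters, which a test on the same libraries favours. The mutants and controls did not overlap in 576 of them, while 47.4% of all genes tested had groups that did not overlap. The median log2 change was 0.80 among the higher genes and -0.89 among the lower genes. At least 2-fold differences were found for 70 higher and 135 lower genes, and at least 4-fold for 8 higher and 30 lower genes. Protein-coding genes made up 96.6% of the higher and 97.7% of the lower genes, against 94.0% of all genes tested. The higher genes had a median transcript length of 1193 bases and the lower genes of 2214 bases, against 1536 bases over all genes. The number of calls rested on which libraries were used: 29 higher and 53 lower without control 195-2, and between 699 and 1409 higher and between 860 and 1158 lower without any other single library. With the length and GC offset it was 508 higher and 458 lower. Of the 111 called genes named here by rule, 71 lost their call without control 195-2, while 0 to 2 did without any other library.

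**Figure D1:**
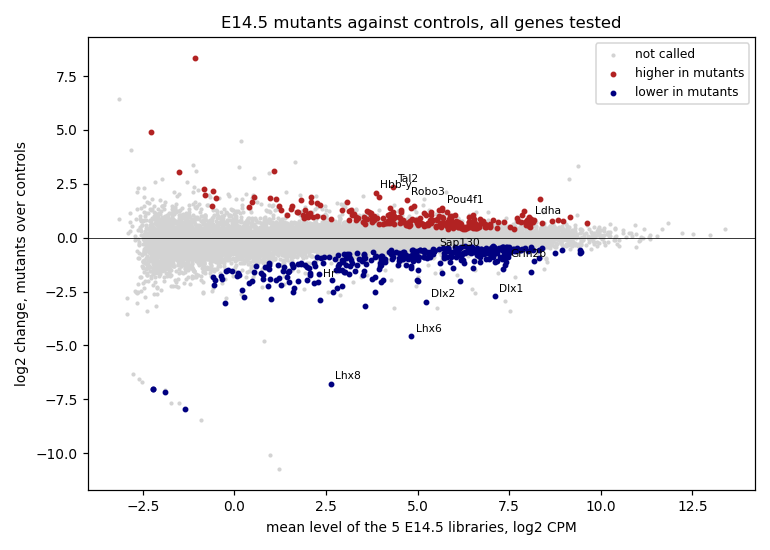
Each point is a gene, with the mean level of the 5 E14.5 libraries (log2 CPM) across and the log2 change of mutants over controls up. The 237 called higher genes are red, the 341 called lower genes blue, and the lower genes Lhx6 (-4.58) and Lhx8 (-6.79) lie far below the rest at their level.

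Genes of the ventral telencephalon were low in both mutants. Of 22 genes marking it, 13 fell, 0 rose and 9 did not pass, while 1.96% of all genes tested fell and 1.36% rose. The median log2 change was -0.94 against 0.01 over all genes tested. Without control 195-2 the count was 9 lower, with a median of -1.03. Lhx6 (chromosome 2, 36081953 to 36105408, minus strand), the LIM homeobox factor of cortical interneurons, stood at 2.08 and 1.70 CPM in mutants, against 46.2, 48.8 and 43.8 CPM in controls. Both mutants were far below all 3 controls, with a log2 change of -4.58 (SE 0.134, adjusted p = 0.000546). Lhx8, which specifies cholinergic neurons of the basal forebrain, stood at 0.113 and 0.0568 CPM in mutants, against 9.19, 12.5 and 9.11 CPM in controls. This gene was close to absent from both mutant libraries, with a change of -6.79 (SE 0.337, adjusted p = 0.00498).

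The Dlx homeobox genes, which drive the production of inhibitory neurons, fell together. Dlx1 stood at 36.1 and 25.8 CPM in mutants, against 188, 245 and 194 CPM in controls (log2 change -2.72, SE 0.16). Dlx2 stood at 8.42 and 6.07 CPM in mutants, against 51.1, 64.5 and 59.0 CPM in controls (-2.98, SE 0.185). In both genes the highest mutant was well below the lowest control. Dlx5 changed by -2.52 and Dlx6 by -1.54. Gsx2, a homeobox factor of ventral progenitors, changed by -2.83. Bcl11b, a zinc finger factor of striatal and deep-layer cortical neurons, changed by -1.44, and the zinc finger factors Sp8 and Sp9 by -0.84 and -0.98. Changes were also called for Foxp1 (-0.51) and Ikzf1 (-0.91).

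The fall did not extend to every ventral gene. Nkx2-1, which specifies the medial eminence, stood at 19.3 and 8.94 CPM in mutants, against 23.9, 33.0 and 27.0 CPM in controls. The groups did not overlap, but the gene did not pass (log2 change -0.97, adjusted p = 0.107). Isl1, a factor of striatal neurons, stood at 34.6 and 20.8 CPM in mutants, against 33.9, 39.7 and 34.2 CPM in controls, and these overlapped. Ebf1, a factor of striatal projection neurons, had a positive log2 change of 0.54 that did not pass (adjusted p = 0.0688). Outside the list, Ppp1r1b, which encodes the striatal phosphoprotein DARPP-32, stood at 1.11 and 3.58 CPM in mutants, against 18.2, 19.3 and 16.9 CPM in controls (-3.16, SE 0.446, adjusted p = 0.0365). It lost its call without control 195-2 (adjusted p = 0.114) or 195-6 (0.0563).

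**Figure D2:**
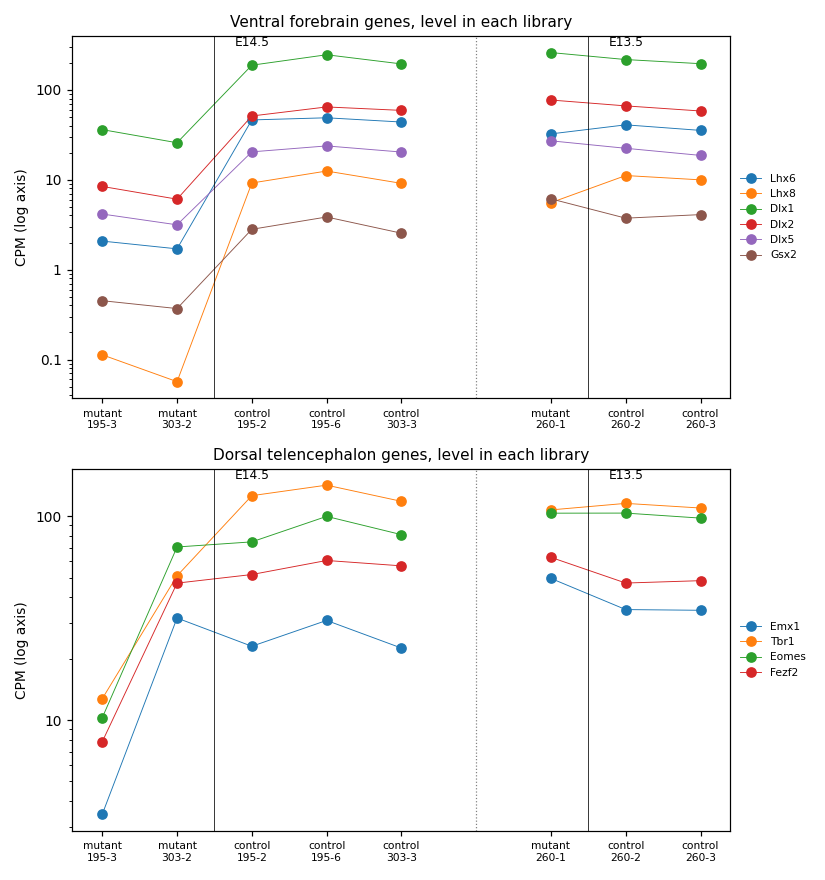
Level of each gene (CPM, log axis) in each library, E14.5 left and E13.5 right of the dotted line, mutants left of controls; lines only join the points of 1 gene. Lhx6, Dlx1 and the other ventral genes are low in both E14.5 mutants, while Emx1 is at 3.45 CPM in mutant 195-3 and 31.6 CPM in mutant 303-2.

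Genes of the dorsal telencephalon differed between the 2 mutants. Only 3 of 22 fell in the comparison (Bcl11b, Cux2 and Nfix) and 0 rose, although the median log2 change was -1.36. Over all genes tested, 1.96% fell and 1.36% rose. The median difference from the littermates was -1.90 in mutant 195-3 and -0.33 in mutant 303-2. Summed over the 22 genes, mutant 195-3 had 984 CPM and mutant 303-2 had 2058 CPM, against 2988, 3296 and 3001 CPM in controls. For 14 of the 22 the mutant effect differed between the litters, each time more negative in litter 195, against 1.23% of all genes tested. The 2 residual degrees of freedom of that fit come only from the control pairs of litters 195 and 260, so single mutants were judged against the spread between control littermates and not against a spread between mutants. Each litter median given here rests on 1 mutant.

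Emx1, a homeobox gene of cortical progenitors, stood at 3.45 and 31.6 CPM in mutants 195-3 and 303-2, against 23.0, 30.8 and 22.6 CPM in controls. Mutant 303-2 was above every control and mutant 195-3 below every control, and the effect in litter 195 minus that in litter 303 was -3.45 on the log2 scale (adjusted p = 2.07e-05).

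The next 3 genes were lowest in mutant 195-3, unlike Cux2, which was lowest in mutant 303-2. Fezf2, a zinc finger factor of corticospinal neurons, stood at 7.83 and 46.9 CPM in mutants 195-3 and 303-2, against 51.7, 60.6 and 57.0 CPM in controls. Eomes, the T-box factor of intermediate progenitors, stood at 10.3 and 70.6 CPM, against 74.8, 99.7 and 81.2 CPM in controls. Tbr1, the T-box factor of early cortical neurons, stood at 12.7 and 51.0 CPM, against 126, 142 and 118 CPM. For Eomes and Fezf2 mutant 303-2 lay just below the lowest control, whereas Tbr1 was clearly lower in both mutants. Slc17a7, the vesicular glutamate transporter, differed by -3.90 between litters, and Tiam2, an activator of the GTPase Rac, by -2.91.

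Among the 3 called dorsal genes, Cux2, a homeobox factor of upper-layer neurons, stood at 60.1 and 47.3 CPM in mutants, against 96.9, 86.6 and 88.4 CPM in controls (-0.73, SE 0.104). Nfix, a nuclear factor I gene of maturing neural stem cells, stood at 85.3 and 185 CPM, against 376, 369 and 365 CPM (-1.61, SE 0.275, adjusted p = 0.0494). Its call was lost without the block (adjusted p = 0.0568), without a filter on low counts (0.0869) and without control 195-2 (0.145) or 195-6 (0.141). Lhx2 and Emx2, which are expressed early in cortical progenitors, had log2 changes of -0.02 and 0.09.

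Over all 17415 genes the mutant minus littermate differences of litters 195 and 303 correlated at r = 0.40 (rho 0.45) and had the same sign for 67.5%. This is a description across genes, which are not independent, and the 2 litters share no library. A log2 difference of at least 1 was seen for 921 genes in litter 195 (310 up, 611 down) and 1403 in litter 303 (500 up, 903 down), while the 2 controls 195-2 and 195-6 differed by as much for 365 genes. The litters' mutant effects differed for 239 genes (1.38% of 17357), 26 (0.15%) more positive and 213 (1.23%) more negative in litter 195. Among the 578 called genes were 2 of the 239. In the comparison of mutants with controls a litter difference adds to the residual spread, so by construction such genes are less likely to be called. The small overlap therefore does not show that the 2 sets are separate. Each litter has 1 mutant, so a difference between litters is also a difference between 2 embryos.

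**Figure D3:**
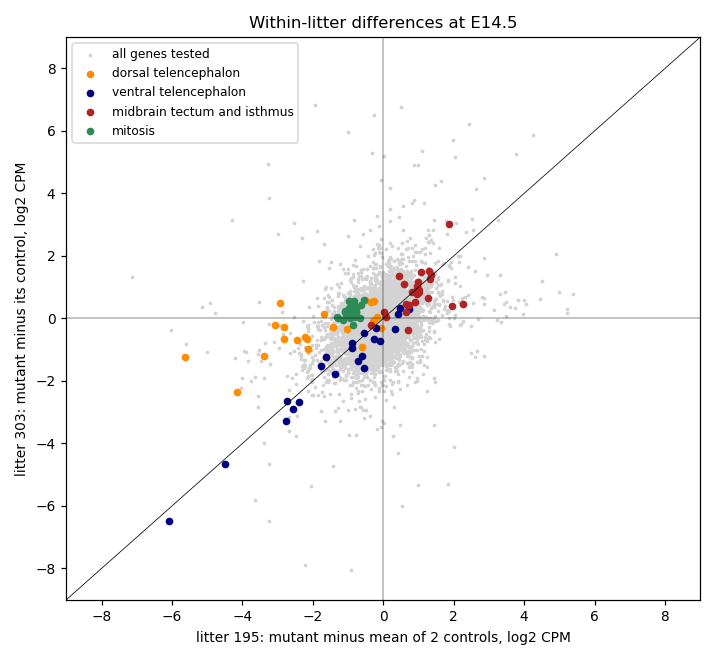
Each point is a gene, with the mutant minus littermate difference in litter 195 across and in litter 303 up (log2 CPM); the diagonal marks equal differences. Ventral telencephalon and midbrain genes lie along the diagonal, while dorsal telencephalon genes (median -1.90 and -0.33) and mitosis genes (-0.92 and 0.19) lie left of it.

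Proliferation genes also differed between the litters, but the summed levels of mutant 303-2 were not below the controls. None of 25 mitosis genes was called in the comparison by edgeR. DESeq2 called 1 lower, and 1 was lower at an unadjusted p under 0.05. For 17 of the 25 the effect was more negative in litter 195, against 1.23% of all genes tested. Summed, the 25 genes reached 580 CPM in mutant 195-3 and 1366 CPM in mutant 303-2, against 1047, 1292 and 1216 CPM in controls. Mutant 195-3 was below and mutant 303-2 above all 3 controls. Top2a, the topoisomerase of dividing cells, stood at 76.4 and 197 CPM in mutants 195-3 and 303-2, against 172, 214 and 193 CPM in controls. Among 26 genes of DNA replication and the G1/S transition, 0 were called by edgeR or DESeq2, and 2 were higher at an unadjusted p under 0.05. For 12 of the 26 the effect was more negative in litter 195, against 1.23% of all genes tested. Litter medians were -0.53 in litter 195 and 0.34 in litter 303. In the other direction Vegfa, the endothelial growth factor, stood at 145 and 67.8 CPM in mutants 195-3 and 303-2, against 59.0, 60.1 and 82.4 CPM in controls, and was highest in mutant 195-3 (litter difference 1.57, adjusted p = 0.000213). Its receptor gene Flt1 (1.25), the endothelial gene Apold1 (1.52), the choroid plexus gene Ttr (1.59) and mt-Nd3, a mitochondrial complex I subunit (1.56), differed in the same direction.

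The other lower genes of smallest p included several of neuronal signalling and transport. Gas7, which takes part in neurite outgrowth, stood at 45.5 and 46.9 CPM in mutants, against 125, 114 and 124 CPM in controls (-1.39, SE 0.0814, adjusted p = 0.00498). Camkv, a kinase-like protein of neuronal vesicles, stood at 31.3 and 31.4 CPM, against 86.8, 82.2 and 81.5 CPM (-1.40, SE 0.0828). The 2 mutants were nearly equal in both genes and far from the controls. Abcc8, the sulfonylurea receptor of ATP-sensitive potassium channels, stood at 5.30 and 7.15 CPM, against 21.9, 21.4 and 27.2 CPM (-1.98). Dync1i1, a dynein intermediate chain, changed by -1.999, Cntnap3, a contactin-associated adhesion protein, by -2.90, Sh3rf3 by -1.97 and Gda, guanine deaminase, by -2.53. Gda at E13.5 reached 2.58 CPM in the mutant, against 3.73 and 3.23 CPM in controls. These levels were nearer to the E14.5 mutants (1.51 and 1.82 CPM) than to the E14.5 controls (10.4, 9.54 and 9.04 CPM). Sh3rf3 went the other way. Its E13.5 controls (36.6 and 31.02 CPM) were nearer to the E14.5 controls (48.06, 44.63 and 42.95 CPM) than to the E14.5 mutants (10.31 and 13.03 CPM). Its E13.5 mutant had 25.39 CPM. Whether the lower genes as a set were nearer to E13.5 levels in mutants was not tested.

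Midbrain genes had the most higher members of the 11 region lists. Of 25 genes of the tectum and isthmus, 14 rose and 0 fell, against 1.36% and 1.96% of all genes tested. The median log2 change was 0.90, with litter medians of 0.95 and 0.83. Pou4f1, a POU homeobox factor of tectal neurons, stood at 75.3 and 87.3 CPM in mutants, against 30.3, 28.6 and 33.3 CPM in controls (1.38, SE 0.0823, adjusted p = 0.00498). Tal2, a bHLH factor of midbrain inhibitory neurons, stood at 29.0 and 49.1 CPM, against 6.69, 9.32 and 6.05 CPM (2.36, SE 0.297, adjusted p = 0.0292). In both genes both mutants lay above every control. En2 and En1, the engrailed genes of the midbrain and hindbrain border, rose by 1.07 and 0.75, Wnt1, the signal of that border, by 1.44, Cnpy1, a modulator of FGF signalling there in zebrafish, by 1.30, and Pax3, a paired box factor of the dorsal neural tube, by 1.26. Gata2 and Gata3, zinc finger factors of midbrain inhibitory neurons, rose by 0.88 and 0.95. The En1 call was lost without mutant 195-3 (adjusted p = 0.0942) and with upper quartile scaling (0.0563). Without control 195-2, 2 of the 25 were called, while the list median was 0.89.

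Thalamic and pretectal genes rose in part, 7 of 17 with 0 lower and a median of 0.46. Among all genes tested, 1.36% rose and 1.96% fell. Without control 195-2, 2 of the 17 were called. Shox2, a homeobox gene of the caudal thalamus, stood at 79.0 and 79.1 CPM in mutants, against 31.7, 31.3 and 33.2 CPM in controls (1.30, SE 0.0817). Irx3, an Iroquois homeobox factor that patterns the neural tube, stood at 43.6 and 45.3 CPM, against 16.9, 18.0 and 17.3 CPM (1.36, SE 0.0998). The mutants of both genes lay together and apart from the controls. The other Iroquois genes Irx1, Irx2 and Irx5 rose by 1.16, 1.21 and 1.17. Gbx2, a homeobox gene of thalamic neurons, rose by 1.26, Sox14, of the rostral thalamus, by 1.05 and Lhx9, of caudal thalamic neurons, by 0.77, while Tcf7l2, a broad thalamic factor, stood at 289 and 210 CPM in mutants, against 185, 230 and 194 CPM in controls, and overlapped. In the hypothalamus list 4 of 16 rose and 1 fell (2 and 1 without control 195-2), with Otp, a homeobox factor of neuroendocrine neurons, at 0.76 and Foxb1, a factor of the mammillary region, at 1.01.

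Robo3 (chromosome 9, 37415669 to 37433246, minus strand), the receptor that lets commissural axons cross the midline, was the higher gene of smallest p. It stood at 39.8 and 51.0 CPM in mutants, against 12.2, 11.8 and 15.0 CPM in controls, with no overlap (1.75, SE 0.0982, adjusted p = 0.00498). The E13.5 mutant had 41.9 CPM of it, against 29.4 and 27.8 CPM in its controls. Ebf2, a helix-loop-helix factor of early neurons, stood at 83.7 and 87.1 CPM, against 36.1, 35.9 and 38.4 CPM (1.21). Nhlh2, a bHLH factor of young neurons, rose by 1.03, Lhx5, a LIM homeobox gene of diencephalon, hindbrain and Cajal-Retzius cells, by 1.06, and Asic4, of the acid-sensing ion channel family, by 1.01. Among genes of mean level 5 CPM or more, the largest changes beside Tal2 and Robo3 were in Hbb-y (2.09), Dbx1, a homeobox gene of interneuron progenitors (1.87), Bhlhe23, a bHLH factor (1.66), and Nkx6-2, a homeobox factor of ventral neural progenitors (1.49).

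**Figure D4:**
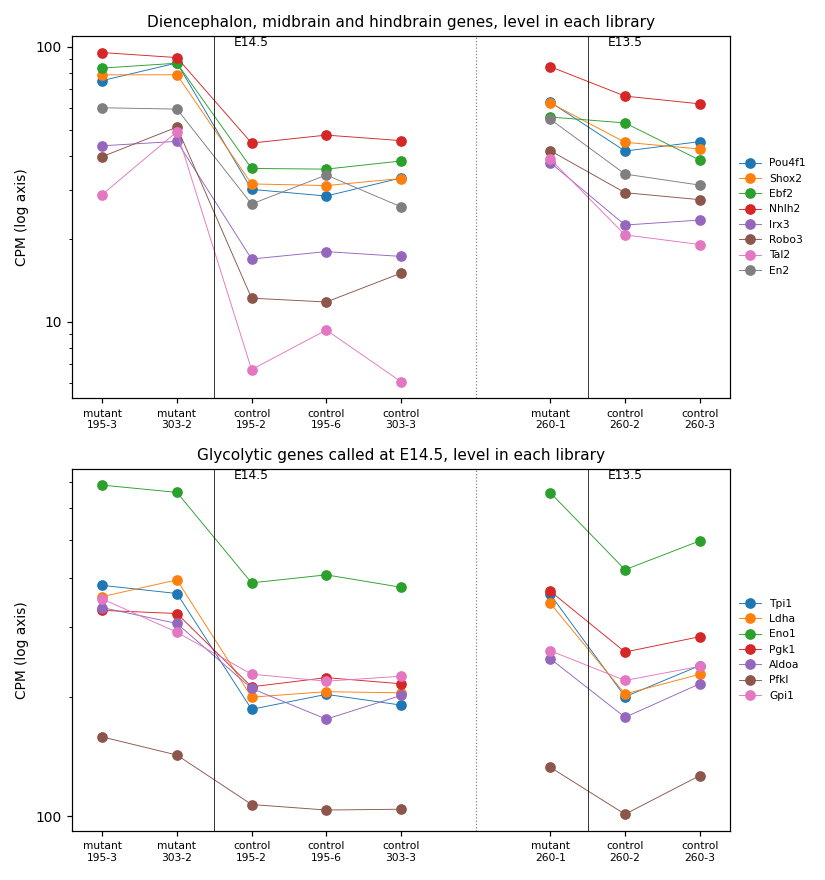
Level of each gene (CPM, log axis) in each library, E14.5 left and E13.5 right of the dotted line, mutants left of controls; lines only join the points of 1 gene. Pou4f1, Shox2, Robo3 and the other region genes, and the 7 called glycolytic genes, are above all 3 controls in both E14.5 mutants.

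Posterior genes were uneven between libraries. Of 26 hindbrain and cerebellum factors, 5 rose and 0 fell, against 1.36% and 1.96% of all genes tested. They included Skor2, a corepressor of Purkinje cells, at 1.28, Olig3, a bHLH factor of dorsal progenitors, at 1.74 and Lhx1 at 1.02. The median was 1.03 with all libraries and 0.79 without control 195-6, the library almost free of Hox transcripts, where 12 of the list were called, while without control 195-2 it was 1. None of 20 Hox genes was called (edgeR and DESeq2 0, with 2 higher at an unadjusted p under 0.05), and the median was 1.49. When control 195-6 was left out, the median was 0.89 with 9 called higher. That run called 786 higher and 860 lower of all 17166 genes tested. Hoxa7 stood at 3.25 and 3.49 CPM in mutants, against 1.11, 0.328 and 2.17 CPM in controls. Of 18 floor plate and dopamine neuron genes 3 rose (Foxa2, a forkhead factor of the floor plate, at 1.18, Msx1 and En1), of 14 serotonin and noradrenaline neuron genes 2 rose (Gata2 and Gata3), and of 9 tested eye and pituitary genes Lhx4 rose by 1.16 and Dct, a melanin enzyme, changed by -1.55. Without control 195-2 these 3 lists had 0 called.

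In the Cajal-Retzius list, which shares genes with the midbrain and hindbrain, 6 of 12 rose and 1 fell. The shares over all genes tested were 1.36% and 1.96%. Ebf3, a helix-loop-helix factor, stood at 383 and 353 CPM in mutants, against 166, 134 and 172 CPM in controls (1.23). Reln, the secreted glycoprotein that defines these cells, stood at 174 and 168 CPM, against 266, 248 and 261 CPM (-0.59). The groups did not overlap in the 7 called genes, as in 576 of all 578 called genes and 47.4% of all genes tested. Without control 195-2, 4 genes of the list were called higher and 0 lower, so the call of Reln was lost. The list median of 0.59 was 0.24 without mutant 195-3 and 0.73 without mutant 303-2.

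Pan-neuronal genes as a group showed little difference, 0 of 29 called by edgeR and a median of -0.03. At an unadjusted p under 0.05, 4 were higher and 8 lower, and DESeq2 called 2 higher and 5 lower. Over all 17415 genes tested, 4542 had an unadjusted p under 0.05, and DESeq2 called 905 higher and 935 lower. Thy1, a neuronal surface protein, stood at 4.29 and 6.64 CPM in mutants, against 15.8, 10.1 and 12.3 CPM in controls (adjusted p = 0.0604). Among 22 radial glia genes 2 fell, Ddah1 by 0.61 and Ptprz1, a receptor phosphatase, by 0.58 on the log2 scale, and the median was 0. Of 18 proneural and intermediate progenitor genes Nhlh2 rose and Insm1, a zinc finger factor of basal progenitors, stood at 42.4 and 50.6 CPM in mutants, against 75.1, 89.2 and 81.4 CPM in controls (-0.83). Of 13 oligodendrocyte lineage genes Sox8, a SoxE factor of glial precursors, was lower (-0.71). These counts are to be read against the 1.36% of all genes tested that rose and the 1.96% that fell. Ddah1, Ptprz1, Insm1 and Sox8 lost their calls without control 195-2 (adjusted p = 0.1, 0.187, 0.0655 and 0.187). In that run 1 gene of the proneural list was called higher and 0 lower.

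Markers outside the neural lineage were called in small numbers, to be read against the 1.36% of all genes tested that rose and the 1.96% that fell. Microglia genes had 0 of 18 called by edgeR or DESeq2 and a median of 0.08, with 3 higher and 2 lower at an unadjusted p under 0.05. Over all 17415 genes tested, 4542 had an unadjusted p under 0.05. In 21 endothelial genes Apln, the apelin ligand of sprouting vessels, rose by 0.92, and in 12 pericyte genes Vtn, vitronectin, by 0.67. Of 17 meningeal and fibroblast genes 4 rose, with Col3a1, a fibrillar collagen, at 350 and 413 CPM in mutants, against 229, 192 and 248.9 CPM in controls (0.74), Lum, lumican, at 0.90, Twist1, a mesenchymal bHLH factor, at 1.04 and Dlk1 at 1.04. The summed level of that list was 1403 and 1544 CPM in mutants, against 1074, 888 and 1165 CPM in controls. Of 14 choroid plexus genes Otx2 and Msx1 rose, both also expressed in other brain regions, while Ttr, transthyretin, stood at 788 and 248 CPM in mutants 195-3 and 303-2, against 567, 504 and 508 CPM in controls. Choroid plexus genes differed between the mutants, with list medians of 0.6 in litter 195 and -0.53 in litter 303. Of 13 muscle, cartilage and skin genes Col2a1, a cartilage collagen, rose by 0.56. Without control 195-2, 1 meningeal gene was called and 0 of the endothelial, pericyte, choroid plexus and muscle lists.

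Of 14 red cell genes tested, 3 rose, all embryonic globins, and 0 fell, against 1.36% and 1.96% of all genes tested. Hbb-y, an embryonic beta-like globin, stood at 25.8 and 27.8 CPM in mutants, against 4.40, 7.26 and 6.99 CPM in controls (2.09, SE 0.218, adjusted p = 0.019). Hba-x, the embryonic zeta globin, stood at 3.54 and 4.002 CPM, against 1.05, 1.31 and 1.58 CPM (1.49), and Hbb-bh1 rose by 3.03 at levels below 1 CPM. Both mutants were above all controls in these 3 genes. The E13.5 libraries had 123 CPM of Hbb-y in the mutant and 93.6 and 91.5 CPM in controls. The adult globins Hba-a1 and Hbb-bt overlapped, with Hba-a1 at 194 and 369 CPM in mutants 195-3 and 303-2, against 288, 237 and 185 CPM in controls. No test compared embryonic with adult globins. The list also split by mutant, with litter medians of -0.19 in litter 195 and 1.02 in litter 303. In it 5 genes had a more negative effect in litter 195, against 1.23% of all genes tested. Without control 195-2, 1 of the 14 was called higher.

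Some glycolytic enzymes rose, to be read against the 1.36% of all genes tested that rose and the 1.96% that fell. Of 22 genes, 7 rose, 0 fell and 15 did not pass, and 8 of the 22 had a negative change, with a median log2 change of 0.39 and litter medians of 0.34 and 0.36, and the summed level was 6333 and 6362 CPM in mutants, against 4644, 4669 and 4540 CPM in controls. Tpi1, triosephosphate isomerase, stood at 383 and 366 CPM in mutants, against 186, 203 and 191 CPM in controls (0.97, SE 0.0853, adjusted p = 0.013). Ldha, the lactate dehydrogenase that regenerates NAD+ at the end of glycolysis, stood at 359 and 396 CPM, against 200, 206 and 205 CPM (0.88, SE 0.0824, adjusted p = 0.014). The mutants were above all controls in both genes. Eno1, enolase, rose by 0.80, Pgk1, phosphoglycerate kinase, by 0.60, Pfkl, a phosphofructokinase, by 0.54, Aldoa, aldolase, by 0.72 and Gpi1, glucose-6-phosphate isomerase, by 0.54. Of 27 hypoxia-inducible genes outside glycolysis, 1 rose, Higd1a, a mitochondrial protein (0.66), with a median of 0.29. Without control 195-2, 1 of the 22 glycolytic genes was called, and the median was 0.37.

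Many glycolytic genes are known targets of hypoxia-inducible factor, whose core binding letters include ACGTG. Only this form of the core was searched, so the shares below do not count other forms. The promoter windows of Ldha, Pgk1 and Tpi1 are shown, 3 of the 7 called glycolytic genes, picked by name and not by rank. They are from RefSeq on GRCm38.p6, each from 250 bases before to 50 bases after an annotated start, 5′ to 3′ on the strand of the gene. For a gene with more than 1 window, a window holding the letters was preferred. Capitals mark ACGTG and its reverse complement CACGT, which overlap in CACGTG. The windows are chr7:46845554-46845853 (plus strand) for Ldha, chrX:106186850-106187149 (plus strand) for Pgk1 and chr6:124814109-124814408 (minus strand) for Tpi1.
Ldha: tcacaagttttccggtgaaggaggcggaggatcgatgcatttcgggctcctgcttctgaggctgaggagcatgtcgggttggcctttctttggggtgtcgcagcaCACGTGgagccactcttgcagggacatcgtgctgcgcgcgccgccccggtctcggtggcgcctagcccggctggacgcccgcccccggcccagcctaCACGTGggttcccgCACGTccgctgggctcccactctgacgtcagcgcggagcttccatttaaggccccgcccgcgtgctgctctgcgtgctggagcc
Pgk1: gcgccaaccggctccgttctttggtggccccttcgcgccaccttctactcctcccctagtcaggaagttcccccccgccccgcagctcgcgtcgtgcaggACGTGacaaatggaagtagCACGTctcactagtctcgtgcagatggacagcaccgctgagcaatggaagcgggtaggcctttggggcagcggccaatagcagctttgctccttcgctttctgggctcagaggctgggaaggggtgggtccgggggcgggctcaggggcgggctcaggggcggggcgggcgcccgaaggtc
Tpi1: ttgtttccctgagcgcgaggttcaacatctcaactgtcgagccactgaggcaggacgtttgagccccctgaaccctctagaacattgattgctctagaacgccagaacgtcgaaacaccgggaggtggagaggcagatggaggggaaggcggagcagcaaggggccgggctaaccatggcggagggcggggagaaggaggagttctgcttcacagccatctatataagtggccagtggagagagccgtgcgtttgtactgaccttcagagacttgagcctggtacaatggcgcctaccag
The Ldha window, 1 of 2 listed for the gene, and the Pgk1 window hold the letters on either strand, and the Tpi1 window does not. Of 21 glycolytic genes with a window, 14 (66.7%) had the letters in at least 1 window, against 21.8% of all 27025 genes; by window the shares were 51.5% of 33 and 19.6% of 32851. Among the called glycolytic genes 3 of 7 (42.9%) had them, and among those not called 11 of 14 (78.6%). The difference between these small groups was not tested. A match is a description of the sequence and not evidence of binding.

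Respiratory chain and ribosomal genes shifted by small amounts. Their edgeR counts stand beside the 1.36% of all genes tested that rose and the 1.96% that fell. Oxidative phosphorylation had 17 of its 74 nuclear genes higher and 0 lower, with a median of 0.41, and all 74 had a positive change; without control 195-2, 0 were called (median 0.37), and with dispersions not robust 9. Cox6c, a cytochrome oxidase subunit, stood at 198 and 155 CPM in mutants, against 97.7, 116 and 96.8 CPM in controls (0.81), and the groups did not overlap. Ndufb6, a complex I subunit, rose by 0.81, Atp5l, an ATP synthase subunit, by 0.70 and Uqcrh, a complex III subunit, by 0.59. Of 79 cytosolic ribosomal protein genes 6 rose, led by Rps21 and Rpl39 (0.83 each), with a median of 0.43. Litter 303 had the larger shift, with a median of 0.66 against 0.23 in litter 195. The 6 calls were all lost without control 195-2 (median 0.39) and with dispersions not robust. Among mitochondrial ribosomal proteins 0 of 74 were called by edgeR (10 higher by DESeq2, 28 higher at an unadjusted p under 0.05), with a median of 0.28 and Mrps33 at 0.52 (adjusted p = 0.0608). Over all 17415 genes tested, DESeq2 called 905 higher, and 4542 had an unadjusted p under 0.05 in either direction. Of 13 mitochondrially encoded genes mt-Atp8, an ATP synthase subunit, rose by 0.77, but with 648 and 402 CPM in mutants, against 344, 404 and 243 CPM in controls, its groups overlapped. Its call was lost without the block (adjusted p = 0.186), in the fit of all 8 libraries (0.0687) and without control 195-2 (0.117).

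Transcript length moved with these lists. When all genes tested were ranked by length into 10 bins, the shortest bin (median 544 bases) had a median log2 change of 0.12 and the longest (4664 bases) of -0.16. Controls 195-2 and 195-6 also differed by length, by -0.07 and 0.13 in the same bins (195-2 minus 195-6). Oxidative phosphorylation genes had a median length of 601 bases, against 628 for cytosolic ribosomal proteins and 5332 for alpha protocadherins. With the length and GC offset the medians were 0.36, 0.36 and -0.23, with 22 and 13 of the first 2 lists called higher and 0 alpha protocadherins called. Mitochondrial transcripts took 3.26% and 2.49% of counts in mutants 195-3 and 303-2, against 2.40%, 2.57% and 2.44% in controls, and pseudogenes 1.08% and 0.992%, against 0.829%, 0.930% and 0.747%. The part of these shares in the result was not tested.

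Among the other subunits of the SIN3-HDAC complex, Ing2 and Ing1, which read methylated histone H3, rose and no other passed the edgeR test: of 26 genes 2 rose and 1, Sap130, fell, with a median of 0.17. Ing2 stood at 19.5 and 18.5 CPM in mutants, against 10.9, 10.1 and 11.4 CPM in controls (0.82, SE 0.122), and Ing1 at 104 and 113 CPM, against 69.0, 77.0 and 77.5 CPM (0.53). Without control 195-2, 0 of the 26 were called (adjusted p = 0.163 for Ing2 and 0.189 for Ing1), while DESeq2 called 5 higher and 1 lower. Over all 17415 genes tested, DESeq2 called 905 higher and 935 lower, and 4542 had an unadjusted p under 0.05. Of 13 alpha protocadherins 0 were called by edgeR (4 lower by DESeq2, 7 lower at an unadjusted p under 0.05), though all 13 had a negative change with a median of -0.45. Pcdhac1 stood at 2.10 and 3.26 CPM in mutants, against 4.57, 4.07 and 5.48 CPM in controls (-0.90, adjusted p = 0.0548). Of 21 beta protocadherins Pcdhb13 fell (-1.17) and of 22 gamma protocadherins Pcdhgc3 (-0.53), with medians of -0.29 and -0.18. By edgeR, 1.96% of all genes tested fell and 1.36% rose. Both genes lost their calls without control 195-2 (adjusted p = 0.189 and 0.161). Pcdhb13 also missed the threshold with dispersions not robust (0.0539), and Pcdhgc3 with the length and GC offset (0.0582).

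Lists of neuronal signalling held some lower genes, against 1.96% of all genes tested that fell. Of 33 glutamate and GABA receptor genes 3 fell. Grin2b, an NMDA receptor subunit, stood at 106 and 92.2 CPM in mutants, against 256, 181 and 221 CPM in controls (-1.13), with no overlap, though the call was lost without control 303-3 (adjusted p = 0.0628). Grik3, a kainate receptor subunit, changed by -1.06 and Gria1, an AMPA receptor subunit, by -0.78. Of 30 synaptic scaffold and adhesion genes 3 fell, among them the postsynaptic density genes Shank2 and Homer2, which fell by 0.76 and 0.62 on the log2 scale. Synaptic vesicle release had 0 of 30 called by edgeR, 4 lower by DESeq2 and 8 lower at an unadjusted p under 0.05, with a median of -0.24; Cplx2, a complexin, was at -0.37 (adjusted p = 0.0745). Of 32 voltage-gated ion channels Kcnq3 (-1.03) and Kcna1 (-1.33), potassium channels, and Cacna1c (-0.83), a calcium channel, fell. Without control 195-2 the counts were 2 receptors, 0 scaffold genes and 1 channel, while DESeq2 called 8, 9 and 10 lower. Over all 17415 genes tested, DESeq2 called 935 lower, and 4542 had an unadjusted p under 0.05 in either direction.

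Of 41 axon guidance genes 9 fell, against 1.96% of all genes tested, and 2 rose, Robo3 and Slit2, a ligand of Robo receptors (0.51). Without control 195-2, 1 of the 41 was called lower and 1 higher. Plxna2 and Plxna4, semaphorin receptors, changed by -0.93 and -0.96. Efnb2, an ephrin ligand, stood at 67.9 and 99.5 CPM in mutants, against 177, 180 and 170 CPM in controls (-1.11). Of 34 chromatin regulators linked to autism 8 fell and 0 rose, with a median of -0.34. Chd3, a chromatin remodeller, stood at 506 and 501 CPM in mutants, against 842, 797 and 833 CPM in controls (-0.71), and the groups were far apart. Adnp, a homeobox chromatin factor, changed by -0.73, Med13l, a Mediator subunit, by -0.60, and Kmt2a and Kmt2d, histone methyltransferases, by -0.60 and -0.53. Under the length and GC offset 8 of the 34 were called and Med13l missed the threshold (adjusted p = 0.0599), and without control 195-2, 0 of the 34 were called (median -0.33).

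Genes of thyroid hormone transport and response fell in 5 of 19 cases and rose in 0, against 1.96% and 1.36% of all genes tested. Without control 195-2, 3 of the 19 were called lower. Hr (chromosome 14, 70552212 to 70573548, plus strand), a corepressor that thyroid hormone induces in rodent brain, stood at 1.74 and 1.59 CPM in mutants, against 7.33, 7.18 and 6.59 CPM in controls (-2.05, SE 0.169, adjusted p = 0.0122). Dio2, the deiodinase that makes active hormone, stood at 0.474 and 0.710 CPM, against 2.77, 2.93 and 2.54 CPM (-2.23, SE 0.267). Both genes were low in each mutant. Rxrg, a retinoid X receptor, changed by -1.60, and the coactivator Ncoa1 by -0.65. Of 24 immediate early genes Fosl2 (-1.91) and Nr4a3 (-1.25), transcription factors induced by activity, fell. Of 14 developmental timing genes Zbtb20, a zinc finger repressor (-1.12), and Nfix fell.

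Of 20 imprinted growth genes 3 rose and 0 fell, and 1 was called without control 195-2. Ndn, necdin, stood at 898 and 720 CPM in mutants, against 405, 450 and 408 CPM in controls (0.97), Cdkn1c, the cell cycle inhibitor p57, at 281 and 392 CPM, against 153, 173 and 149 CPM (1.06), and Dlk1, a Notch-like ligand, at 145 and 118 CPM, against 62.5, 65.5 and 65.9 CPM (1.04). All 3 were higher in both mutants than in any control. Among signalling pathways, 2 of 35 Wnt genes rose (Fzd10, a Wnt receptor, at 1.45, and Wnt1), 1 of 18 Sonic hedgehog genes (Foxa2) and 1 of 22 Notch genes (Jag1, a ligand, at 0.59), with medians of 0.22, 0.12 and 0.22. Of 23 interferon response genes Bst2 rose by 1.28 and Ifit2 changed by -0.93. These counts stand beside the 1.36% of all genes tested that rose and the 1.96% that fell. Without control 195-2, Fzd10 kept its call. Wnt1, Foxa2, Jag1, Bst2 and Ifit2 lost theirs (adjusted p = 0.105, 0.143, 0.222, 0.0999 and 0.172). With dispersions not robust, Jag1 (0.055) and Ifit2 (0.0508) also missed the threshold. Cholesterol synthesis (23 genes), p53 targets (20), the integrated stress response (26) and chaperones of the unfolded protein response (24) had 0 called by edgeR, with medians of 0.14, 0.10, 0.02 and 0.16. DESeq2 called 0, 2, 2 and 1 of them higher, and at an unadjusted p under 0.05 the counts were 5 higher and 1 lower, 5 and 0, 1 and 3, and 5 and 0. Over all 17415 genes tested, 4542 had an unadjusted p under 0.05, and DESeq2 called 905 higher. Sesn2, a stress-induced sestrin, was at 0.59 (adjusted p = 0.103), Bax, the apoptosis effector, at 0.84 (0.103), Lss and Sqle, sterol enzymes, at -0.29 (0.123) and 0.24 (0.125), and the chaperone Hspe1 at 0.45 (0.0657).

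**Figure D5:**
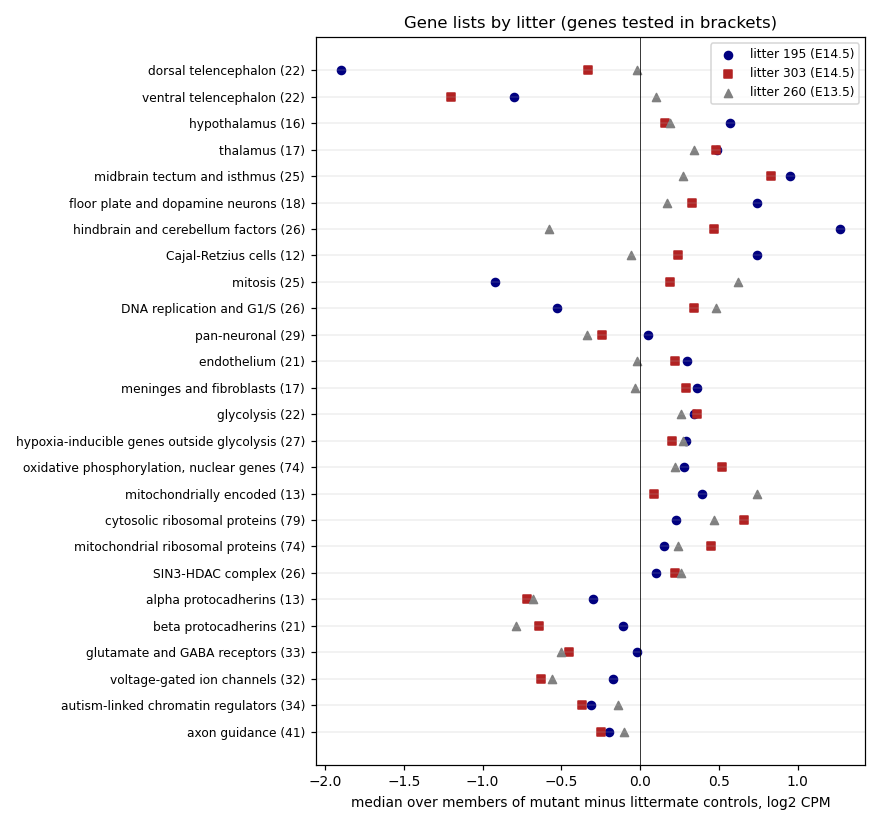
Median over the tested members of each list of the mutant minus littermate difference (log2 CPM), for litter 195 (circles) and litter 303 (squares) at E14.5 and litter 260 (triangles) at E13.5. Ventral telencephalon genes are at -0.80 and -1.20 in the E14.5 litters and 0.10 in litter 260, and dorsal genes reach -1.90 in litter 195 only.

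The E13.5 litter shows how far the E14.5 effect differs by stage, with the limits that it holds 1 mutant and that stage and litter cannot be told apart. Of the 578 genes called at E14.5, 497 (86.0%) had the same sign in litter 260, with a median difference of 0.39 for the higher genes (0.78 in both litters 195 and 303) and of -0.39 for the lower genes (-0.88 and -0.91). Over all genes the differences of litter 260 had the sign of litter 195 for 61.0% and of litter 303 for 74.1%. The mutant effect differed between stages for 13 of 17357 genes (0.0749%), 11 (0.0634%) more negative and 2 (0.0115%) more positive at E14.5. Lhx6, Lhx8, Dlx1, Dlx2, Dlx5 and Gsx2, all of the ventral telencephalon list, were among the 11.

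Lhx6 at E13.5 reached 32.3 CPM in the mutant, against 40.8 and 35.4 CPM in controls, and the effect at E14.5 minus that at E13.5 was -4.35 (adjusted p = 7.86e-05). Dlx1 stood at 259 CPM in mutant 260-1, against 217 and 195 CPM in controls, so the mutant was the highest at E13.5 (-3.06, adjusted p = 0.00192). The differences for Lhx8, Dlx2 and Dlx5 were -5.87, -3.29 and -2.93. Plat, tissue plasminogen activator, stood at 56.7 and 78.2 CPM in the E14.5 mutants, against 35.6, 32.8 and 53.3 CPM in controls, and at 24.2 CPM in the E13.5 mutant, against 51.7 and 55.1 CPM (1.79, adjusted p = 0.00515). Ren1, renin, differed by 5.33 at levels of 2.21 CPM or less in every library. Both genes were lowest at each stage in the library almost without Hox transcripts: Ren1 stood at 0.0678 CPM in mutant 260-1 and 0.678 CPM in control 195-6. Without control 195-6 the stage differences were 1.75 for Plat (adjusted p = 0.000137) and 5.23 for Ren1 (0.0022), and without the block Plat lost its call (adjusted p = 0.212). Mutant 260-1 is the only E13.5 mutant, so its low Hox level and the stage cannot be told apart. Leaving out control 260-2 left 1 of the 13 calls, that of Lhx6 (adjusted p = 0.00963), and leaving out control 260-3 left 5, none of them more positive at E14.5.

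Sap130 differed by -0.17 between stages (adjusted p = 0.758), with 35.9 CPM in the E13.5 mutant against 49.9 and 46.8 CPM in its controls. Tpi1 (0.24, adjusted p = 0.701), Ldha (0.20, 0.714) and Hr (-0.32, 0.748) also did not pass for a stage difference, which does not show that the effects were equal.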

How the data were processed

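RNA was measured in 5 E14.5 brains, 2 mutants and 3 controls, with 3 E13.5 brains beside them. Column-purified, DNase-treated total RNA went into a TruSeq v2 kit, per the labels' protocols; this kit selects poly(A) RNA without marking strand, so overlapping antisense genes cannot be told apart. Per the submitters' processing notes, TopHat2 2.0.9, HTSeq 0.5.4p5 and edgeR 3.4.2 were used with mm10 and GRCm38, with no step named. The authors deposited expected counts, estimated reads per gene, for 34866 genes, of which 66.0% to 68.9% per library were whole numbers; the sources used here do not say how the fractions arose, and genes with near-identical copies are uncertain. Gene identifiers matched GENCODE M21 (GRCm38) for 34652 genes.

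The expected counts were rounded and tested in R 4.3.3 with edgeR 4.0.16 (quasi-likelihood F test, robust dispersions) on the 5 E14.5 libraries, with the litter number from the sample titles as block, TMM factors, filterByExpr with a minimum count of 10, and Benjamini-Hochberg adjusted p under 0.05 over all genes tested. The residual degrees of freedom were 2 and the biological coefficient of variation 13.6%. The labels do not say what the number in the titles is; the closing section gives a check of it. P-values measure the spread between embryos. Differences between stages and between litters came from fits of all 8 libraries, with 1 mutant per litter. CPM use TMM factors of all 8 libraries, and within-litter differences are log2 CPM with a prior count of 2. Transcript length is the median over a gene's transcripts. The scripts were tested on simulated data.

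The members and the 52 gene lists were chosen with earlier results of these data known, and no list was tested as a set; 4 listed symbols had no gene in the table. Named genes are Sap130, Pcdha9, per direction the 12 called genes of smallest p and the 6 of largest change at 5 CPM or more, up to 4 called members per list (2 members as values where none was called), and up to 6 and 5 genes per direction for the stage and litter differences. Some genes that this rule or the lists hold are not reported here. Other genes named as list members were chosen after their values were seen. Alternatives were RLE and upper quartile factors, no filter, DESeq2 1.42.0, no block, dispersions not robust, a length and GC offset, a fit of all 8 libraries and each library left out.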

Additional observations from a re-analysis of the deposited data

Results flagged for a closer look

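Differences between the stages and between the E14.5 litters are listed here because a test of the difference passed (edgeR quasi-likelihood, Benjamini-Hochberg adjusted). For E14.5 minus E13.5, 2 genes were more positive and 11 more negative, among them Plat 1.79, Ren1 5.33, Lhx6 -4.35, Lhx8 -5.87, Dlx1 -3.06, Dlx2 -3.29 and Dlx5 -2.93 on the log2 scale. For litter 195 minus litter 303, 26 were more positive and 213 more negative. Of these, Vegfa was at 1.57, mt-Nd3 at 1.56, Ttr at 1.59, Flt1 at 1.25 and Apold1 at 1.52. Tiam2 was at -2.91, Slc17a7 at -3.90, Fezf2 at -2.56 and Emx1 at -3.45.

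For 10 gene lists the median difference in litter 260 (E13.5) had the sign opposite to that of both E14.5 litters, which was not tested, and several of these medians are close to 0. The litter 260 median was 0.10 for ventral telencephalon against -0.80 and -1.20 in litters 195 and 303. For Hox genes it was -7.17, against 3.67 and 0.59, with mutant 260-1 and control 195-6 almost without Hox transcripts. Hindbrain and cerebellum factors were at -0.58 (1.27 and 0.47 at E14.5) and serotonin and noradrenaline neuron genes at -0.48 (0.77 and 0.38). Cajal-Retzius genes were at -0.06, endothelium at -0.02, pericytes and smooth muscle at -0.09, meninges and fibroblasts at -0.03, the interferon response at -0.41 and imprinted growth genes at -0.05, each positive in both E14.5 litters.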

How the results depend on the processing

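The counts of called genes changed with the processing. Of the 111 called named genes, 0 changed sign under any alternative run. Picking genes by their call and reusing the same libraries favours this. Higher and lower genes at E14.5 (237 and 341) numbered 575 and 610 with no filter, 905 and 935 by DESeq2, 766 and 752 without the block, 773 and 867 in the fit of all 8 libraries and 508 and 458 with the length and GC offset. They numbered 29 to 1409 and 53 to 1158 with 1 library left out. With 1 library left out, 1 residual degree of freedom is left, and by construction it is the difference between the litters without control 195-2 or 195-6, and the pair 195-2 and 195-6 otherwise; why control 195-2 moves the counts most was not tested. The named calls lost were 2 with upper quartile factors, 0 with RLE, 2 with no filter, 2 without the block, 14 with dispersions not robust, 4 with the offset, 1 in the fit of all 8 and 71 without control 195-2. At an unadjusted p under 0.05 there were 4542 of the 17415 genes tested.

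Sap130 (-0.59) lost its call with the offset (-0.41) and without control 195-2 (-0.59), and ranged from -0.67 to -0.53 with 1 library left out. Pcdha9 (-0.52) ranged from -0.82, where it passed, to -0.30. Stage differences (2 and 11) numbered 113 and 58 with no filter, 129 and 62 by DESeq2, 4 and 14 without the block, and 0 to 449 and 1 to 500 with 1 library left out. Litter differences (26 and 213) numbered 140 and 628 with no filter, and 24 to 430 and 116 to 709 with 1 library left out; without an E14.5 mutant they cannot be estimated.

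The litter numbers were checked as pairs: the deviation of each mutant from the mean correlated with that of its litter's controls at -0.032 for litter 195, 0.15 for litter 303 and 0.238 for litter 260, and mutant 195-3 correlated best with control 303-3 (0.233). The numbers therefore were not shown to pair the samples. Of the main calls, 229 of 237 higher and 333 of 341 lower were also called without the block. Depth limits genes such as Lhx8 and Hbb-bh1, which are under 1 CPM in mutants.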
